A study of Mus musculus with 77 samples.

Results

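In CD23+ B cells taken from spleens of female mice, H2AK119Ub, histone H2A carrying a single ubiquitin on a lysine near its end, was mapped beside H3K27me3 and H3K27ac, and the stretches described here are those that carried H2AK119Ub with neither of the other marks. They were defined in the cells of the mb1-cre wild type 24 h after CpG. A stretch had to lie on an autosome, measure at least 1 kb, be covered by peaks of at least 2 of the 3 H2AK119Ub lists, and lie outside every peak of the 4 H3K27me3 and 3 H3K27ac lists of that group. The rule found 9432 stretches, called members below, out of 43909 stretches of 6 classes that the same lists gave by which marks covered them. Members held 38.6 Mb, 1.57% of the autosomes, and made up 38.7% of the stretches and 29.2% of the bases with H2AK119Ub in those cells. The other large classes were 9237 stretches with H2AK119Ub and H3K27me3 and 5231 with H2AK119Ub and H3K27ac. The peaks of the mb1-cre wild type at 24 h chose the members, so their values are given as a description only.

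The study removed Xist, the RNA that coats the inactive X, in 2 ways, and used CUT&RUN, in which an antibody guides a nuclease to chromatin and the released fragments are sequenced. In the mb1-cre system the Cre recombinase was expressed from the B lineage mb1 gene in the animal; the wild type (WT) carried mb1-cre, and the deleted cells (KO) came from Xist fl/fl mice with mb1-cre. In the TAT-Cre system, cells of WT or Xist fl/fl mice received 80 µg of a cell-permeable Cre protein for 45 min in culture. Both systems were sampled at 0 h without stimulation and at 24 h with 1 µM CpG, a DNA ligand of TLR9. The TAT-Cre cells at 0 h had not met Cre, so "KO" at 0 h there is the floxed genotype before deletion, and at 24 h all TAT-Cre cells, WT included, had received both Cre and CpG, whose parts in any change with time cannot be told apart. The 77 libraries formed 24 groups of 3, but for H3K27me3 the mb1-cre system had 5 KO libraries at 0 h and 4 in each other group. Titles call the libraries biological replicates without naming animals, and each p-value therefore reflects only how far these libraries spread.

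H2AK119Ub is written by Polycomb repressive complex 1 (PRC1), whose catalytic subunits are Ring1a and Ring1b, and H3K27me3 by Polycomb repressive complex 2 (PRC2). Canonical PRC1 carries a Cbx protein that reads H3K27me3, whereas variant PRC1 reaches chromatin without it, through partners such as Kdm2b, which binds unmethylated CG dinucleotides, or the E2f6, Mga and Max proteins. H2AK119Ub in turn is read by PRC2 cofactors, and H3K27ac occupies the lysine that PRC2 methylates, marking active promoters and enhancers. In B cells, Polycomb complexes are known for holding developmental and plasma cell genes in check.

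Promoters inside members ranged from CG-rich to CG-poor, and 3 of each kind are shown, with CG dinucleotides in capitals, because CG content divides the promoters below. Each runs 5′ to 3′ from 250 bases before to 50 after the annotated start (RefSeq, GRCm38.p6). The CG-rich ones belong to Stag3, a meiotic cohesin subunit (chr5:138280259-138280558, plus strand, 30 CG), to Mgll, the monoacylglycerol lipase (chr6:88724162-88724461, plus strand, 32 CG), and to Agfg2, a protein with an Arf GTPase-activating domain (chr5:137684704-137685003, minus strand, 18 CG). The CG-poor ones belong to Klf1, the erythroid transcription factor (chr8:84901732-84902031, plus strand, 3 CG), and to the T cell kinase genes Lck (chr4:129558323-129558622, minus strand, 5 CG) and Zap70 (chr1:36764265-36764564, plus strand, 5 CG).
Stag3: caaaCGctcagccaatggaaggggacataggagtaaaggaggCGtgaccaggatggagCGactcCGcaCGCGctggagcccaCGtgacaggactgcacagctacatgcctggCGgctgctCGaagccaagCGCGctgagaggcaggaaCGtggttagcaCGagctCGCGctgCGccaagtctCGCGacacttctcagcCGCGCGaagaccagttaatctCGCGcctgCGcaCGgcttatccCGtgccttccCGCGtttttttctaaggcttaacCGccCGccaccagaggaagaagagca
Mgll: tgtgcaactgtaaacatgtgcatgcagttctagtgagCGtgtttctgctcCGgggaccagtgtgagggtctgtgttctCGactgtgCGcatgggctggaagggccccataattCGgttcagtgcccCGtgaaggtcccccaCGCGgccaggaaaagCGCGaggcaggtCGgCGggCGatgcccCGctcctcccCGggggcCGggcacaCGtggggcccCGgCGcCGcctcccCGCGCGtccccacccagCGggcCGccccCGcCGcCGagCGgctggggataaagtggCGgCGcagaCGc
Agfg2: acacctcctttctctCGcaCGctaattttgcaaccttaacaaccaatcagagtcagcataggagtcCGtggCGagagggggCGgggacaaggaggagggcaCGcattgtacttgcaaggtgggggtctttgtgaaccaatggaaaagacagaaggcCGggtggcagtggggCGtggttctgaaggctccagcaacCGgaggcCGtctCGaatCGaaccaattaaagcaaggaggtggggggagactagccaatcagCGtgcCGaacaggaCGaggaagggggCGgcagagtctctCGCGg
Klf1: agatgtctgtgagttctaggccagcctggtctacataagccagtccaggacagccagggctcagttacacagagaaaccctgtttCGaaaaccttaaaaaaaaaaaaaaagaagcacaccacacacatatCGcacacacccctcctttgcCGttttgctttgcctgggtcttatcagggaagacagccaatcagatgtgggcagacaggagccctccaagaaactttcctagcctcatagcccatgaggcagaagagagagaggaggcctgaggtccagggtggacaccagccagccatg
Lck: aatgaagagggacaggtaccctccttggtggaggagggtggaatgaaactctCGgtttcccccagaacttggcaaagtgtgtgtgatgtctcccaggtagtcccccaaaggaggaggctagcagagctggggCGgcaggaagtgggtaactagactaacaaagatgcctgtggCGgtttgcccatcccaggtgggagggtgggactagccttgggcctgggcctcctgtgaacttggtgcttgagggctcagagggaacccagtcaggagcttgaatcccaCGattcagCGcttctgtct
Zap70: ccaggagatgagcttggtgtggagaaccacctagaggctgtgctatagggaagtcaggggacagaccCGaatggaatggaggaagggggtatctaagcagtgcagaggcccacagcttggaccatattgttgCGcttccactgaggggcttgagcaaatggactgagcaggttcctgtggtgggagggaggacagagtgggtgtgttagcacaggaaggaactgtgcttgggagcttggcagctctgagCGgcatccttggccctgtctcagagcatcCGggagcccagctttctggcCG

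Of the 31365 promoters with a RefSeq sequence, which cover 79.5% of protein-coding genes, 2057 lay whole inside a member. They belonged to 1265 protein-coding genes and 507 genes of long non-coding RNA. Their median was 16 CG in 300 bases, against 7 over all promoters, 16 in stretches shared with H3K27me3, 20 in those shared with H3K27ac, and 4 in promoters outside all 6 classes. At least 10 CG were found in 64.8% of promoters in members and in 43.9% of all promoters. The share of promoters lying in members was 2.12% among those with up to 2 CG, 5.02%, 6.29%, 8.27% and 11.5% in the bins up to 19 CG, and 9.58% from 20 CG upward. Stretches shared with H3K27me3 took 3.5% of the poorest bin and were nearly level from 10 CG upward, at 20.5%, 20.6% and 20.5%. The sequence CACGTG, the E-box that Max and Mga recognise, stood in 9.97% of promoters in members and 7.14% of all promoters of that length, against 11.9% in stretches with H3K27ac alone 8.64% in those shared with H3K27ac and 7.51% in those shared with H3K27me3. GCGGGAA, an E2f motif, stood in 6.42% of promoters in members and 4.63% of all, against 6.35% with H3K27me3, 7.62% with H3K27ac and 9.41% with H3K27ac alone. Neither motif was more frequent in members than in every marked class. Both strands were searched, and the 2 motifs can overlap by at most 1 base. The Stag3 promoter holds both motifs and the Mgll promoter CACGTG alone. These matches describe letters in a window and say nothing of binding.

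**Figure D1:**
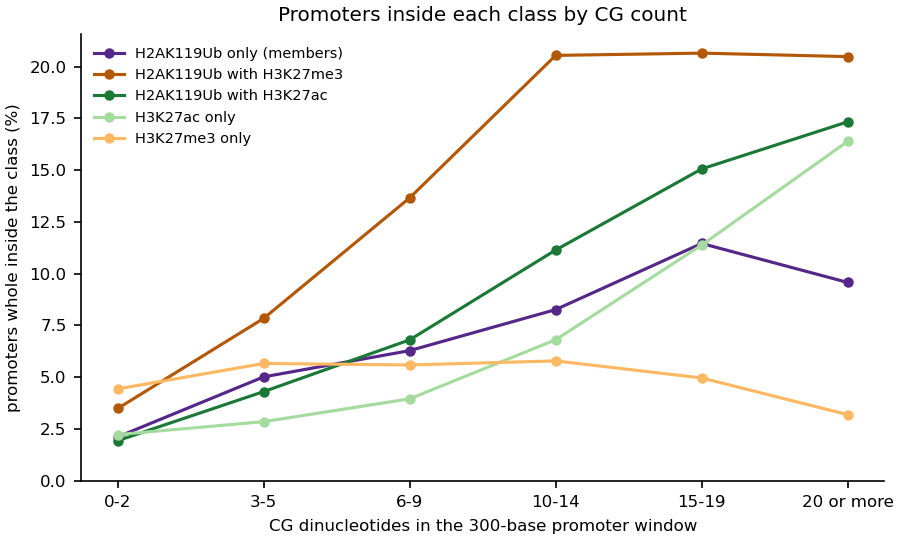
Share of promoters (y axis, percent) that lie whole inside a stretch of each of 5 classes, by number of CG dinucleotides in the 300 bases (x axis, 6 bins). The members' share is 2.12% in the poorest bin and peaks at 11.5% among promoters with 15 to 19 CG. The share of stretches with H2AK119Ub and H3K27me3 is also highest there, at 20.6%, and nearly level from 10 CG upward, with 20.5% in the richest bin.

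Members were short and mostly stood alone. Their median length was 3269 bp, 1 in 10 exceeded 7595 bp, and the longest measured 32780 bp. Whole blocks of H2AK119Ub, not cut by another mark, made up 5667 members (60.1%). Their median distance was 27016 bp to the nearest H3K27me3 and 25615 bp to the nearest H3K27ac. The remaining 3765 were flanks of larger blocks. Of all members, 1998 abutted H3K27me3 only, 1583 abutted H3K27ac only and 186 abutted both. These counts include a few whole blocks whose edge met such a peak. Density was highest on chromosome 11, with 852 members or 6.99 per Mb, and lowest on chromosome 18, with 2.26 per Mb. At the length threshold, 234 stretches of 900 to 999 bp that missed it were covered to 31.6%, 28.6% and 28.8% in the 3 TAT-Cre WT libraries at 24 h, and 236 members of 1000 to 1099 bp to 33.5%, 27.4% and 26.1%.

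Gene bodies held 52.9% of member bases, against 47.0% of all autosomal bases. Transcription starts were those of the 31365 promoters above, with none on chromosome 18. They cover 79.5% of protein-coding genes, so starts on other chromosomes are missed too. Outside chromosome 18, 1629 of 9227 members (17.7%) held one of these starts. The share was 32.4% in stretches shared with H3K27me3 and 39.9% in those shared with H3K27ac. Starts were nonetheless denser in members than on the autosomes at large, at 57.3 against 13.2 per Mb. The median distance from a member's centre to the nearest of these starts was 10095 bp, which missing starts can only lengthen. A start lay in 21.1% of whole blocks, 15.8% of members abutting H3K27me3 and 8.30% of those abutting H3K27ac.

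The libraries differed in how much they called. H2AK119Ub peaks covered 39.8 to 198.7 Mb of the autosomes per library, and read depth is not given. Of the 24 H2AK119Ub lists, 4 were short, with 1967 to 2742 autosomal peaks, all at 0 h: mb1-cre WT replicates 1 and 3, mb1-cre KO replicate 3 and TAT-Cre WT replicate 1. By H3K27ac peaks, all 7 defining B cell genes were marked in every library, against 1 to 6 of 20 T cell, 0 to 4 of 18 myeloid, 0 to 1 of 10 NK cell and 0 to 2 of 9 erythroid genes. The T cell genes Cd3e, Cd4, Cd8a, Tcf7 and Zap70, the myeloid genes Elane, Csf1r and Lyz2, and Klf1 carried no H3K27ac peak in any group.

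H2AK119Ub was found again on the members after 24 h in every group the rule had not used, over close to 4 in 10 of their bases on the full lists. On lists trimmed to equal length the means of the same 3 groups were 9.83%, 6.37% and 8.49%, so the level depends on how much each list calls. In the cells that chose them, the 3 lists covered 76.3%, 75.7% and 85.8% of member bases. After 24 h, the mb1-cre KO lists covered 36.7%, 43.9% and 35.5% (38.7% ± 4.53, SD, n = 3), the TAT-Cre WT lists 48.6%, 43.7% and 39.4% (43.9% ± 4.64, SD, n = 3) and the TAT-Cre KO lists 47.9%, 31.2% and 59.5% (46.2% ± 14.2, SD, n = 3). The 3 groups overlapped, and the spread was widest in TAT-Cre KO. At 0 h, the lists covered 5.72%, 51.8% and 7.97% in mb1-cre WT and 23.1%, 44.4% and 6.91% in mb1-cre KO. In the TAT-Cre system at 0 h they covered 6.29%, 26.2% and 40.5% in WT and 28.2%, 11.1% and 36.5% in KO. Every list that covered under 10% was one of the 4 short ones, and 4 of the 8 longer lists at 0 h reached the range of stimulated cells.

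**Figure D2:**
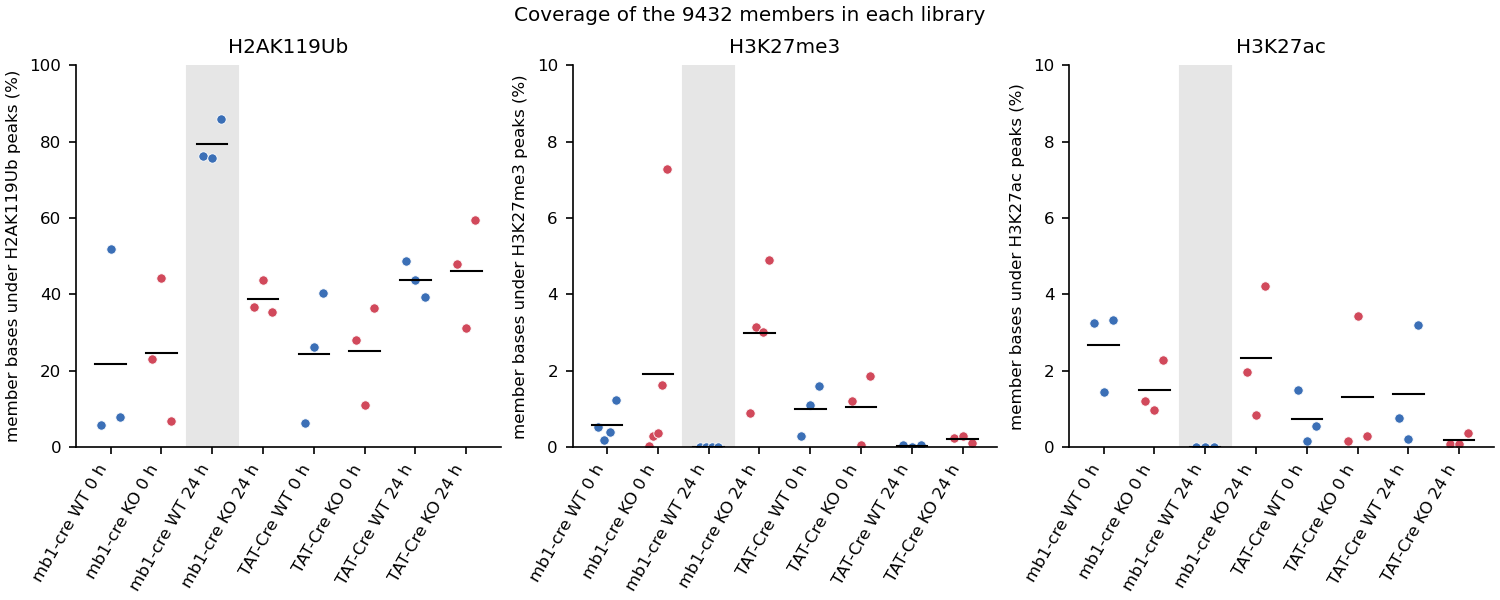
Percent of member bases under peaks (y axis) in each library (dots), by system, genotype and time, with the mean as a black line; WT is blue, KO red, and the group that chose the members grey. H2AK119Ub (axis to 100%) covers 31.2% to 59.5% in the 9 libraries at 24 h outside the rule, whereas H3K27me3 and H3K27ac (axes to 10%) stay under 8% in every library.

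At 24 h, stretches that carried a second mark had more H2AK119Ub than members did. Those shared with H3K27me3 were covered to 56.9%, 65.6% and 56.5% in mb1-cre KO, 64.5%, 60.1% and 66.6% in TAT-Cre WT, and 73.2%, 53.9% and 74.6% in TAT-Cre KO at 24 h. In each of these 9 libraries members had the lower value, at 0.591 to 0.798 of it. Those shared with H3K27ac were covered to 47.3%, 51.8% and 45.8%, 61.6%, 58.0% and 42.8%, and 50.9%, 38.1% and 70.2% in the same order, also above the members in each library. At 0 h the order against H3K27ac was the other way: members had 1.04 to 1.34 times the coverage of those stretches in 11 of 12 libraries and 0.875 times in TAT-Cre KO replicate 2. The classes were chosen from the same lists in the same way, but members were shorter and rarely promoters, and the part of length or place in this gap was not tested. Where peaks did cover members, their mean signal per base was below the autosomal mean of the same library in every H2AK119Ub library.

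**Figure D3:**
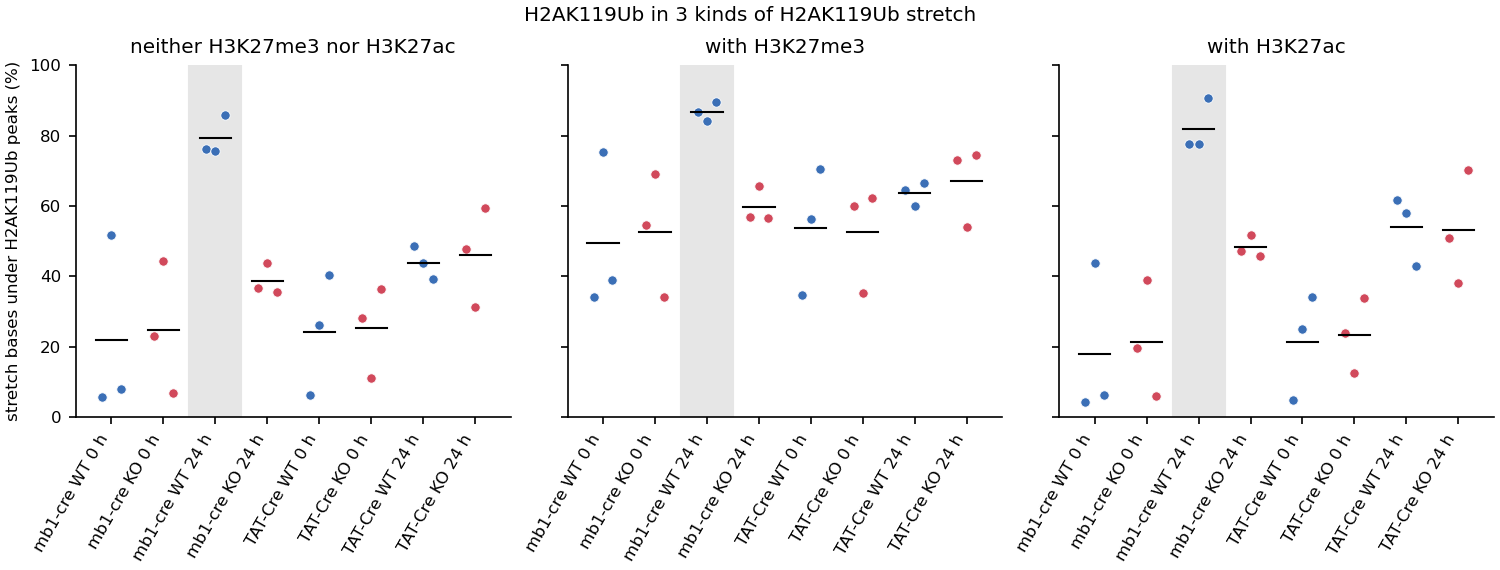
Percent of bases under H2AK119Ub peaks (y axis) in each library (dots) for members, stretches shared with H3K27me3 and stretches shared with H3K27ac, by group. At 24 h outside the rule the members sit below the H3K27me3-sharing stretches in all 9 libraries.

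Coverage was centred on the members in the groups that had no part in the rule. A peak lay over the member's centre in 35.8% of members in mb1-cre KO at 24 h, 43.4% in TAT-Cre WT at 24 h and 45.0% in TAT-Cre KO at 24 h (H2AK119Ub, means of 3 libraries). At 20 kb to the left and right these shares were 18.2% and 18.3%, 22.1% and 22.1%, and 23.3% and 23.0%. H3K27me3 showed a trough at the same centres, with 3.15% in mb1-cre KO and 0.0318% in TAT-Cre WT at 24 h, against 13.2% and 12.5%, and 4.02% and 3.86%, at 20 kb. H3K27ac also dipped, to 2.53% in mb1-cre KO and 1.48% in TAT-Cre WT, against 10.2% and 9.77%, and 7.30% and 7.04%, at 20 kb.

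**Figure D4:**
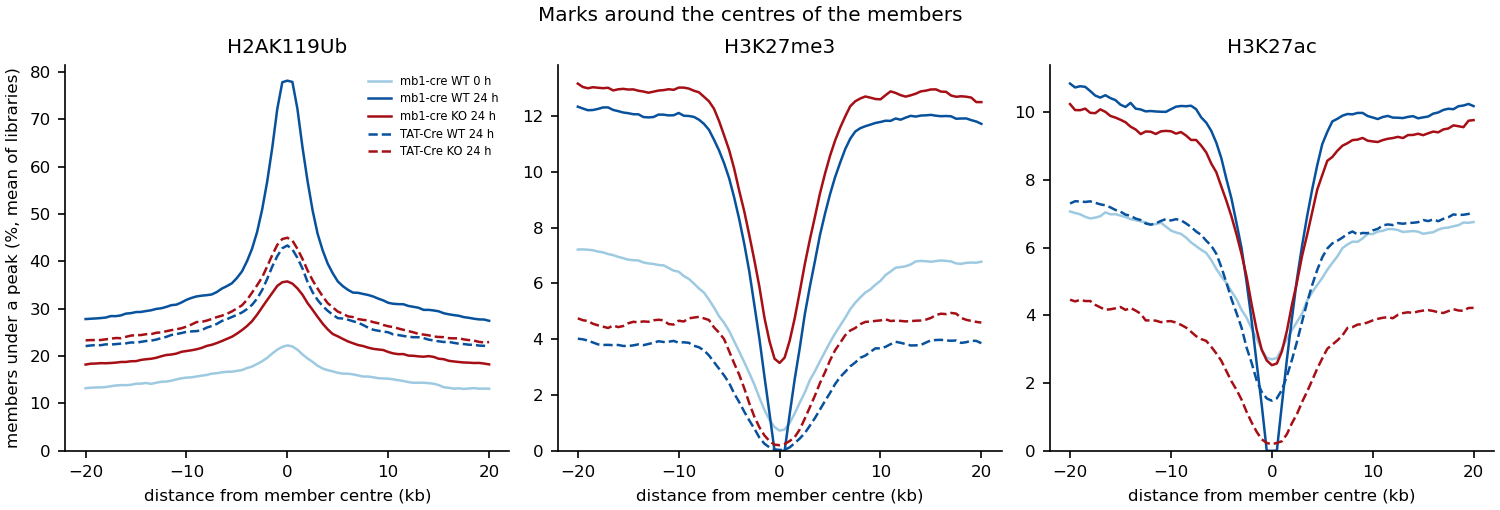
Percent of members with a peak over the base at a given distance (x axis, kb from the member's centre) for 3 marks and 5 groups, each line the mean over libraries. H2AK119Ub peaks at the centre in all 5 groups, and H3K27me3 and H3K27ac fall there, which the rule fixes in mb1-cre WT at 24 h only.

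Single members varied more than their mean. With coverage of at least 50% taken as present, 249 members (2.64%) were present in all 9 other H2AK119Ub libraries at 24 h and 737 (7.81%) in none. At 0 h, 81 were present in all 12 libraries and 2250 (23.9%) in none. Only 4 members were present in all 9 at 24 h and in none of the 12 at 0 h; they were picked out after their values were seen. The first was 10752 bp at chr2:167707724-167718475, 6755 bp from the non-coding gene Gm38464. The others were 3697 bp at chr6:51285317-51289013 in Gm32479, 1604 bp at chr14:24778334-24779937, 1140 bp from Gm31838, and 21865 bp at chr11:69839522-69861386, over Tnk1, Plscr3, Tmem256 and Gm32708. The first 3 had 0% coverage in every library at 0 h and at least 52.1%, 58.0% and 92.4% at 24 h.

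Across time, H2AK119Ub on members was called higher at 24 h far more often than lower. Levels were compared in ppm of the library's autosomal peak signal that fell on a stretch, on the log2(ppm + 1) scale, over mb1-cre KO, TAT-Cre WT and TAT-Cre KO (9 libraries at each time). Of 8594 members tested, 1691 rose (19.7%) and 198 fell (2.3%) at an adjusted p under 0.05 (limma, Benjamini-Hochberg over all stretches). Over all 31997 stretches tested, 16.2% rose and 4.81% fell. The median difference was +1.03 on members and +0.79 over all stretches, with a median SE of 0.77. Stretches shared with H3K27me3 rose in 14.8% and fell in 6.23%, and those shared with H3K27ac rose in 34.4% and fell in 0.934%, so the members' share of risers lay between the 2 classes. All 3 classes were chosen as covered at 24 h in mb1-cre WT, which favours higher values at 24 h.

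The balance depended on list length. With every list trimmed to its 1967 strongest autosomal peaks, 1608 members could be tested, of which 321 rose and 225 fell (20.0% and 14%), so that rises made up 58.8% of the calls instead of 89.5%. Over all 6996 stretches tested that way, 14.5% rose and 24.5% fell. The median difference was then +0.99 on members and -0.40 over all stretches. Within the mb1-cre KO libraries alone, 283 members rose and 72 fell (background 6.26% and 3.83%), of 4419 tested. Within the TAT-Cre libraries alone, 1010 rose and 85 fell of 8035 tested (background 11% and 2.31%). The members' share of rises was thus near that of all stretches in mb1-cre KO and slightly above it in TAT-Cre. Their share of falls was below that of all stretches in both systems. Without the 4 short lists, 1043 rose and 233 fell of 8587 tested (12.1% and 2.71%). Over all 31959 stretches tested that way, 10.5% rose and 5.88% fell.

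Rises were most frequent on long members and on those over a start, against 19.7% of all members and 16.2% of all stretches. Signal was summed over a stretch and not divided by its length. With 1 ppm added, the same rise per base therefore gives a larger log2 difference on a longer member. The part of this in the order by length was not tested. Members of at least 8 kb rose in 42.4% of cases (348 of 821), those of 4 to under 8 kb in 24.4%, those of 2 to under 4 kb in 14.9% and those under 2 kb in 10.3%. Members holding a start rose in 27.5% (435 of 1580, 10 fell), those in a gene body without a start in 21.5% (830 of 3854, 78 fell) and those outside gene bodies in 13.5% (426 of 3160, 110 fell). Members holding a start were also longer, with a median of 5061 bp against 3174 and 3059 bp, and the part of length in that order was not tested. Of the 198 that fell, 55.6% lay outside gene bodies and 5.05% held a start. Of the 1691 that rose, 25.2% and 25.7% did. Abutting H3K27ac went with a rise in 25.8% (376 of 1459) and abutting H3K27me3 in 17.7% (335 of 1893).

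The rise with the smallest p-value was on a block of 23901 bp at chr17:31917486-31941386, 3382 bp from Hsf2bp, whose protein binds heat shock factor 2 and acts in meiotic recombination. It was at 0 ppm in all 9 libraries at 0 h. At 24 h it reached 113, 77.5 and 106 ppm in mb1-cre KO, 110, 67.4 and 47.1 ppm in TAT-Cre WT, and 121, 72.9 and 144 ppm in TAT-Cre KO. The times did not overlap, and the log2 difference was +6.52 (SE 0.40, adjusted p = 3.16e-09, limma). In mb1-cre WT at 0 h, outside the fit, replicate 2 had 7.25 ppm there. With 0 ppm throughout 0 h, the block entered the fit only through its values at 24 h. Values of 0 have no spread, which narrows the SE. A 0 means that no peak was called, and mb1-cre KO replicate 3 and TAT-Cre WT replicate 1 at 0 h were short lists. The p-value is therefore a description, as for every member below at 0 ppm throughout a whole time or system. With 46043 member bases in 5 stretches, Hsf2bp (chr17:31944769-32034895) was also among the 10 genes with the most, and 4 of its 5 members rose (background 16.2%). Its member bases were uncovered at 0 h except for 6.94% in mb1-cre KO replicate 2. At 24 h they were covered to 29.8%, 38.3% and 42.5% in mb1-cre KO, 53.5%, 47.7% and 48.3% in TAT-Cre WT, and 68.0%, 27.7% and 62.5% in TAT-Cre KO.

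The next members by p-value behaved alike. The block near Gm38464 named above went from 0 ppm in all 9 libraries to 65.5, 92.8 and 146 ppm in mb1-cre KO, 70.5, 48.7 and 57.1 ppm in TAT-Cre WT, and 42.1, 56.5 and 48.4 ppm in TAT-Cre KO (log2 +6.04, SE 0.40, adjusted p = 4.82e-09, limma). It lies next to the second longest member, 29786 bp over Cebpb, the gene of a C/EBP transcription factor, and A530013C23Rik (chr2:167677496-167707281). A member of 9471 bp over Adamts7, a secreted metalloproteinase, and Tbc1d2b (chr9:90193733-90203203) rose by +5.66 (SE 0.39, adjusted p = 7.79e-09, limma), again from 0 ppm in all 9. The Agfg2 member, 6430 bp at chr5:137681831-137688260, holds the promoter printed above. It went from 0 ppm in all 9 to 38.0, 49.4 and 64.4 ppm in mb1-cre KO, 47.7, 53.7 and 33.0 ppm in TAT-Cre WT, and 36.7, 40.9 and 38.8 ppm in TAT-Cre KO, a difference of +5.49 (SE 0.38, adjusted p = 7.82e-09, limma). In the lone longer mb1-cre WT list at 0 h, replicate 2, it had 17.6 ppm, so a naive sample outside the fit did carry the mark there.

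The fallers were led by the immunoglobulin kappa light chain locus, Igk. A member of 2331 bp at chr6:69423651-69425981, near the V segment Igkv4-61, had 22.8, 20.0 and 50.3 ppm at 0 h in mb1-cre KO, 40.7, 19.7 and 14.5 ppm in TAT-Cre WT, and 22.7, 40.6 and 18.7 ppm in TAT-Cre KO. It was at 0 ppm in all 9 libraries at 24 h (log2 -4.73, SE 0.41, adjusted p = 9.23e-08, limma). The member at chr6:69431642-69435394, 2823 bp from Igkv4-59, fell by 4.64 (SE 0.57) and that at chr6:69493784-69494915, 5338 bp from Igkv4-58, fell by 3.64 (SE 0.45); the latter had an adjusted p of 0.0960 within the mb1-cre KO libraries alone. The remaining named faller lay 43482 bp from Klhl6, a B cell gene needed for germinal centres (chr16:20026532-20028200, 1669 bp). It had 11.8 to 41.3 ppm in the 9 libraries at 0 h and 0 ppm in all 9 at 24 h (log2 -4.55, SE 0.42, adjusted p = 1.99e-07, limma). These members were nevertheless covered in 2 of the 3 mb1-cre WT libraries at 24 h, by the rule. There the block near Klhl6 had 0, 9.68 and 6.94 ppm, against 37.4, 11.9 and 37.4 ppm in mb1-cre WT at 0 h, and that near Igkv4-61 had 0, 11.6 and 8.44 ppm against 45.0, 13.3 and 34.7 ppm. These values are a description, and of the 0 h values the first and last come from short lists, in which each stretch takes a larger share of the signal.

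Igk (chr6:67555636-70726754) held 47 members, of which 11 touched a V segment. Of 46 tested, 19 fell and 1 rose, the riser over Igkv9-123 (log2 +2.78, adjusted p = 0.0391, limma), and the median difference was -1.74. Among all stretches 4.81% fell and 16.2% rose, and among all members 2.3% and 19.7%. At 0 h these members were covered to 39.8%, 76.6% and 43.3% in mb1-cre WT and 51.4%, 77.2% and 44.1% in mb1-cre KO. In the TAT-Cre system they were covered to 34.0%, 58.4% and 72.9% in WT and 63.6%, 40.2% and 62.7% in KO. At 24 h coverage was 16.2%, 17.9% and 12.1% in mb1-cre KO, 29.7%, 24.4% and 21.7% in TAT-Cre WT, and 24.0%, 22.7% and 32.2% in TAT-Cre KO. Every library at 24 h outside the rule lay below every library at 0 h, the 4 short lists included, whereas the mb1-cre WT libraries at 24 h that chose the members had 76.3%, 71.2% and 76.3%. On trimmed lists, 14 of 20 testable Igk members fell, none rose, and the median was -4.19, where 24.5% of all stretches and 14% of all members fell. H3K27me3 covered 0% to 28.9% of these bases, the highest in mb1-cre KO replicate 5 at 0 h, and H3K27ac 0% to 3.5%.

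Gse1, a large gene for a protein of a histone deacetylase and demethylase complex, held more member bases than any other gene. Its 25 members summed to 163593 bp, 45.8% of the gene with 2 kb on each side (chr8:120228501-120581383), and 15 of 24 tested rose. For comparison with this and the counts below, 16.2% of all stretches and 19.7% of all members rose. Coverage of these bases at 0 h was 9.08%, 33.0% and 2.64% in mb1-cre KO, 3.38%, 14% and 27.1% in TAT-Cre WT, and 19.5%, 9.08% and 16.4% in TAT-Cre KO. At 24 h it was 46.5%, 71.2% and 50.7%, 55.7%, 56.9% and 41.0%, and 53.1%, 48.8% and 69.7% in the same order, so the times did not overlap in the fitted groups. Mgll held 54150 bp in 7 members, 50.2% of its window, and 3 of 6 tested rose. Hivep3, a zinc finger protein gene, had 62053 bp in 12 members and 4 of 11 rose. Ttc28 had 61856 bp with 3 of 11 and Pebp4 56720 bp with 3 of 12. Morrbid, a non-coding RNA of myeloid survival, and Dab2ip, a Ras GTPase-activating protein, each had 1 riser, of 7 and 6 tested, near those shares. The non-coding A930011G23Rik (12 tested) and Epb41l4b (3 tested) had none. The longest member, 32780 bp at chr9:61327348-61360127, covered the non-coding genes Gm34264 and Gm39349.

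**Figure D5:**
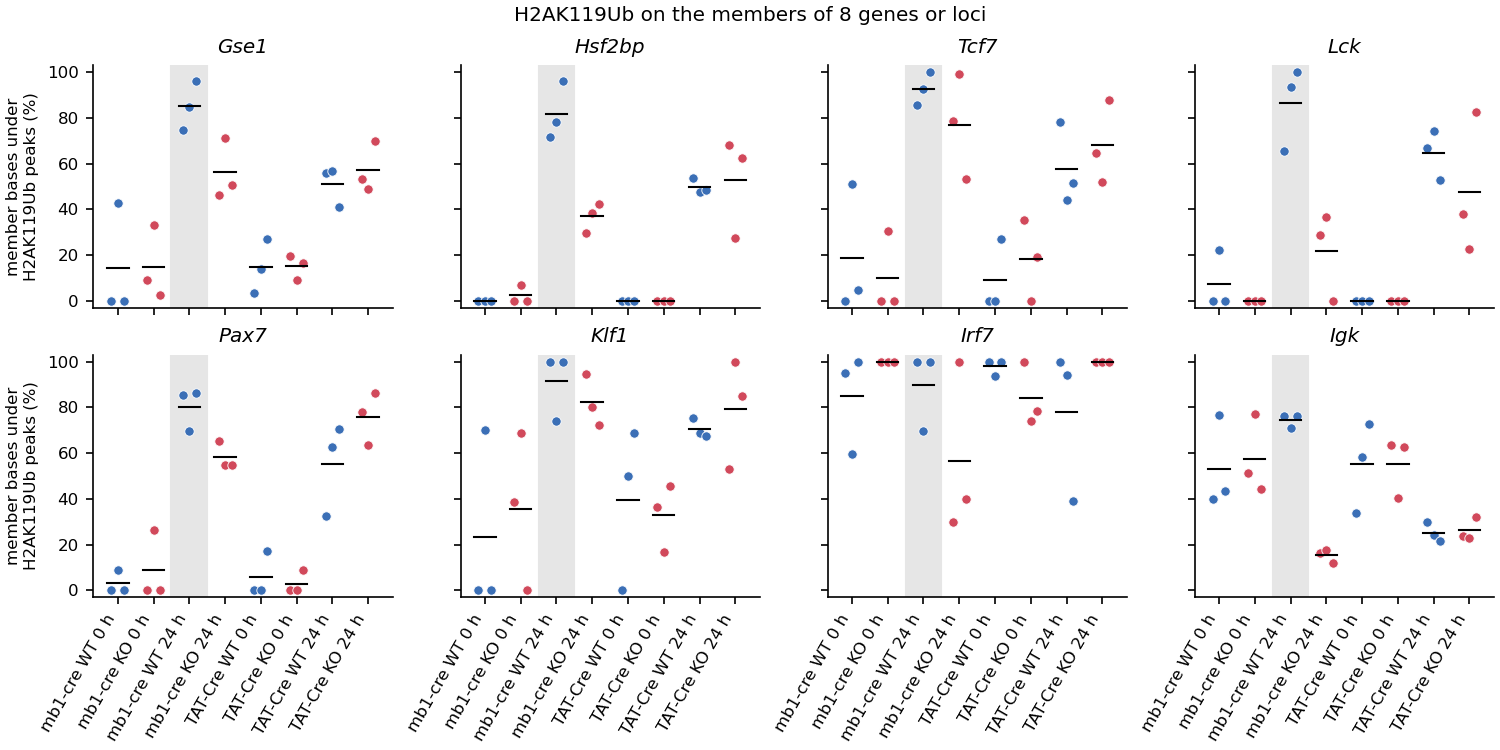
Percent of the member bases of 8 genes or loci under H2AK119Ub peaks (y axis) in each library (dots), by group; WT is blue, KO red, and the group that chose the members grey. Gse1, Hsf2bp, Tcf7, Lck and Pax7 are higher at 24 h, Irf7 is high at both times, and Igk is lower at 24 h in every group except the grey one.

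Members touched 4386 of 20665 protein-coding genes (21.2%) and 1802 of 12408 non-coding genes (14.5%), with 2 kb on each side counted. Of the 4386, 1615 held no other class of H2AK119Ub stretch, 1802 (41.1%) also held a stretch shared with H3K27me3, and 1328 (30.3%) one shared with H3K27ac. Genes of the mature follicular B cell rarely held a member: 2 of 30 did, Pou2f2 and Cd40, while 21 held a stretch shared with H3K27ac. Developmental Polycomb genes rarely did either, with 1 of 50, Pax7, while 46 held a stretch shared with H3K27me3. The rule leaves out every base under either mark, which favours low counts in both lists. The lists with the largest shares were PRC1, PRC2 and deubiquitinase genes (18 of 38, 47.4%) and T cell genes (9 of 20, 45.0%). Gene length was not matched between lists.

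Genes of B cell activation held a member in 12 of 36 cases, and 5 of their 15 tested members rose, none fell; 16.2% of all stretches and 19.7% of members rose. They included those at Cd80, a costimulatory ligand (log2 +2.42), Egr3, an immediate early factor (+2.64), Nfkb2, an NF-kB subunit (+3.17), and Ccl22, a chemokine that draws T cells (+2.75). In TLR9 signalling, 2 of 18 genes held a member, Irak4, a kinase, and Irf7, the interferon regulatory factor; neither changed at the threshold, and Irf7 stayed near full coverage in most libraries (lowest 29.9%; log2 -0.58, adjusted p = 0.35, limma).

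T cell genes held 13 tested members, of which 5 rose and none fell (background 16.2% and 4.81% of all stretches). Tcf7, the T lineage transcription factor (chr11:52246527-52283383), rose on 2 of 3 members (+3.72 and +4.65). Its member bases were covered at 0 h to 0%, 30.4% and 0% in mb1-cre KO, 0%, 0% and 27.1% in TAT-Cre WT, and 35.2%, 0% and 19.2% in TAT-Cre KO. At 24 h Tcf7 was covered to 78.6%, 99.1% and 53.1%, 78.0%, 44.1% and 51.3%, and 64.6%, 52.0% and 87.9%, above every library at 0 h of those groups. Lck rose on 1 of 2 members (+4.59); it was at 0% in all 9 fitted libraries at 0 h and at 0% to 82.5% at 24 h, with mb1-cre KO replicate 3 at 0%. Unlike Tcf7, Lck carried H3K27ac peaks in some libraries. The member at Cd4, the T helper coreceptor, rose by +3.06 and that at Cd5, a receptor shared by T and some B cells, by +3.08. None of 2 members at Zap70 was called. On trimmed lists both Tcf7 calls held (adjusted p = 0.0221 and 0.00509, limma).

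Members were held by 6 of 18 myeloid and 2 of 9 erythroid genes. The myeloid genes gave 2 rises among 5 tested members (background 16.2%), at Itgam, an integrin (+3.21), and at Elane, neutrophil elastase (+2.54), whose adjusted p on trimmed lists was 0.115. Klf1, whose window lay wholly in a member, rose by +2.59 (adjusted p = 0.0381, limma) and also on trimmed lists (adjusted p = 0.00329, limma). At 24 h Klf1 was covered to 94.4%, 80.1% and 72.3% in mb1-cre KO, 75.4%, 68.8% and 67.7% in TAT-Cre WT, and 53.2%, 100% and 85.0% in TAT-Cre KO. Pax7, the muscle satellite cell factor (chr4:139737059-139833530), rose on both of its members (+4.5 and +4.54). Pax7 coverage at 0 h was at most 26.4% in the fitted groups, and at 24 h it was 65.4%, 54.7% and 54.7%, 32.5%, 62.7% and 70.6%, and 78.2%, 63.7% and 86.1%, so the times did not overlap. Klf1 and Elane, like Tcf7, had no H3K27ac peak in any library, and the part of other cell types in these H2AK119Ub values was not tested.

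The genes of the Polycomb machinery themselves carried members. Of 26 tested members at 18 genes, 3 rose (11.5%, against 16.2% of all stretches), at Kdm2b (+3.41, adjusted p = 0.0544 on trimmed lists), Cbx7, a reader of H3K27me3 (+2.78), and Phc1, a polymerising subunit (+2.00). The member at Bmi1, a Pcgf subunit of canonical PRC1, fell by 1.66. The variant PRC1 genes Pcgf1, Pcgf3, Pcgf5, Pcgf6, L3mbtl2 and Mga all held members, none of them called. Germline genes, a known group of variant PRC1 targets, held members in 5 of 24 cases (Ddx4, Dazl, Stag3, Brdt and Piwil2), and none of 6 tested was called. Of plasma cell genes, 4 of 12 held members and none of 7 was called; those at Prdm1, the plasma cell master factor, were covered to at least 34.2% in every library and had H3K27me3 on up to 79.1% of their bases in groups outside the rule. In B cell receptor signalling 3 of 20 genes held a member; that at Itpr1, the calcium channel opened by inositol trisphosphate, fell by 3.22 and Vav2 and Nfatc2 were not called. Of 8 tested members at 7 of 24 cell cycle and ribosome genes, only that at Polr1b, an RNA polymerase I subunit, rose (+1.79). Of the remaining lists, members were held by 3 of 23 imprinted genes (Airn, Kcnq1 and Kcnq1ot1, none called), 1 of 10 NK cell genes (Nkg7, not called) and 1 of 15 housekeeping genes (Tubb5, +2.73).

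Deletion of Xist gave no call on the members in the pooled fit. Over mb1-cre at 0 h and TAT-Cre at 24 h (6 KO against 6 WT libraries), 0 of 8040 members differed in H2AK119Ub (limma), as did 0 of 29440 stretches (background 0%); 222 members had an unadjusted p under 0.05. The median difference, KO minus WT, was +0.14 on members and +0.09 over all stretches. Before Cre, TAT-Cre KO and WT at 0 h differed at 0 of 3923 members (background 0%), with 125 at an unadjusted p under 0.05. The mb1-cre libraries alone also gave 0 of 3094, with 65 at an unadjusted p under 0.05 and medians of +1.38 on members and +1.22 over all stretches. At 24 h the mb1-cre WT values were fixed by the rule and allow no test.

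Within the TAT-Cre libraries at 24 h, a fit added after the data were seen called 28 members higher and 41 lower in KO among 6863 (background 0.419% and 0.604%), with a median difference of -0.01 on members and over all stretches. The members' shares were those of all stretches, so the calls below describe single loci and not the members as a set. The member over Nkg7, a granule protein of cytotoxic cells, and Cldnd2 (chr7:43437008-43441426) was covered to 85.9%, 77.7% and 93.0% in KO and to 0% in all 3 WT libraries (log2 +4.38, adjusted p = 0.028, limma). With 0 in all WT libraries, it entered the fit only through its KO values, and values of 0 narrow the SE. Its p-value is therefore given as a description, as for any call here with 0 in a whole group. Others called higher lay in Deptor, an mTOR inhibitor (+4.59), in Adk, adenosine kinase (+4.53), and 13393 bp from Ubl3 (+4.89). Members called lower lay in Clic5 (-4.20), in Prkag2, an AMP kinase subunit (-4.48), and 2327 bp from Slc25a20 (-4.27). These were picked after their values were seen. In the pooled fit none was called.

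The systems did not differ at the threshold either. Over WT and KO at 0 h and KO at 24 h, 0 of 8216 members differed in H2AK119Ub between TAT-Cre and mb1-cre (limma; background 0.00335%), and 353 had an unadjusted p under 0.05.

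H3K27me3 stayed sparse on the members wherever it was measured. In the mb1-cre system it covered 0.178% to 1.23% of member bases in the 4 WT libraries at 0 h, 0.0430% to 7.27% in the 5 KO libraries at 0 h (median 0.382%), and 0.895%, 3.15%, 3.03% and 4.91% in KO at 24 h. In the TAT-Cre system it covered 0.281%, 1.10% and 1.61% in WT and 1.21%, 0.0457% and 1.88% in KO at 0 h. At 24 h the shares were 0.0092% to 0.0651% in WT and 0.119% to 0.287% in KO. The 4 mb1-cre KO libraries at 24 h thus lay above the 6 TAT-Cre libraries of that time. Their H3K27me3 peaks also covered more of the autosomes, 120.0 to 190.8 Mb. TAT-Cre lists at 24 h covered 34.5 to 58.4 Mb in WT and 51.4 to 59.8 Mb in KO. The part of list size in this gap was not tested. No H3K27me3 peak touched 6769 members (71.8%) in any of the 25 libraries outside the rule.

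Few members could be tested for H3K27me3, and calls were rare. KO and WT with Cre differed at 0 of 401 members (limma, 9 at an unadjusted p under 0.05, background 0%), and before Cre at 0 of 90 (3 at an unadjusted p under 0.05, background 0%). Within mb1-cre alone the fit called 0 of 359 members (background 0.0149% higher in KO), and within TAT-Cre alone 0 of 5, too few to compare with a background of 2.65% higher and 0.429% lower. Over time 1 of 990 was called, lower at 24 h (background 0.052% lower, 0.00473% higher, 0.0567% in either direction): 1244 bp at chr1:170887139-170888382, 1598 bp from Dusp12, a phosphatase gene. At 0 h its H3K27me3 was 0, 14.8, 10.5, 9.30 and 6.85 ppm in mb1-cre KO, 17.9, 11.2 and 12.5 ppm in TAT-Cre WT, and 10.7, 23.6 and 6.25 ppm in TAT-Cre KO. At 24 h it was 0 ppm in all libraries of those groups except TAT-Cre KO replicate 2, with 13.0 ppm (log2 -2.98, SE 0.54, adjusted p = 0.0386, limma). That call was lost with most single libraries left out. Within the mb1-cre KO libraries alone, 30 of 710 members were higher and 3 lower at 24 h, where 13.8% and 0.148% of all stretches were. Within TAT-Cre alone 0 of 124 were called (background 0% higher and 0.0388% lower).

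Between systems, 1 of 1072 members was lower in TAT-Cre (background 0.441% lower, 0.0422% higher, 0.483% in either direction): 9372 bp at chr5:147387251-147396622 in Flt3, the receptor of early lymphoid progenitors. Its H3K27me3 was 2.69, 0, 6.74 and 11.9 ppm in mb1-cre WT at 0 h, 0, 8.55, 14.8, 6.68 and 44.8 ppm in mb1-cre KO at 0 h, and 5.72, 28.3, 4.41 and 25.6 ppm in mb1-cre KO at 24 h. All TAT-Cre libraries were at 0 ppm (log2 -2.99, SE 0.58, adjusted p = 0.0156, limma; 0.0871 with a pseudocount of 10 ppm).

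H3K27ac also covered few member bases. It covered 3.26%, 1.45% and 3.34% of member bases in mb1-cre WT and 1.22%, 0.982% and 2.27% in mb1-cre KO at 0 h, and 1.96%, 0.850% and 4.21% in mb1-cre KO at 24 h. In the TAT-Cre system, WT had 1.49%, 0.158% and 0.558% at 0 h and 0.752%, 0.206% and 3.19% at 24 h. TAT-Cre KO had 0.172%, 3.44% and 0.302% at 0 h and 0.0847%, 0.0954% and 0.365% at 24 h. The groups overlapped broadly. Of the autosomes as a whole, H3K27ac covered 2.95% and 3.02% in mb1-cre WT replicates 1 and 3 at 0 h. In TAT-Cre KO replicate 2 at 0 h it covered 2.01%. In these naive libraries members were covered more than the autosomes, and in every other library outside the rule they were covered less. No H3K27ac peak touched 7240 members (76.8%) in any of the 21 libraries outside the rule.

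Where H3K27ac could be tested over time, members fell more often than they rose, the reverse of all stretches. Of 628 members, 19 rose and 51 fell at 24 h (3.03% and 8.12%; limma), against 30.3% and 6.64% of all 11908 stretches. Members were chosen as free of H3K27ac at 24 h, which favours lower values there. Among the falls named by p-value were 2 neighbouring members at the non-coding genes Gm32328 and Gm32246. At chr6:51140725-51145678 (4954 bp), H3K27ac was 60.8, 59.9 and 81.6 ppm in mb1-cre KO, 59.4, 81.8 and 88.0 ppm in TAT-Cre WT, and 170, 51.5 and 106 ppm in TAT-Cre KO at 0 h, and 0 ppm in all 9 at 24 h (log2 -6.32, SE 0.26, adjusted p = 9e-12, limma). The 16570 bp member at chr6:51117164-51133733 in Gm32328 fell by 6.59; its H3K27ac was 106 to 325 ppm in 8 of 9 libraries at 0 h, 0 ppm in TAT-Cre KO replicate 1, and 0 ppm in all 9 at 24 h. Its H2AK119Ub was 0, 13.4 and 0 ppm in mb1-cre KO, 0, 54.9 and 26.1 ppm in TAT-Cre WT, and 0, 0 and 52.7 ppm in TAT-Cre KO at 0 h. At 24 h it was 47.3, 79.9 and 126 ppm, 73.2, 61.8 and 37.7 ppm, and 63.3, 103 and 52.5 ppm in the same order. Every library of the fit at 24 h thus had H2AK119Ub and no H3K27ac on this member. A member 7337 bp from Katnal1 also lost H3K27ac (log2 -4.94).

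The rises of H3K27ac were smaller. The member in Slc25a39, a mitochondrial glutathione carrier (chr11:102403725-102406557), had 0 ppm in all 9 libraries at 0 h. At 24 h it had 8.0, 13.1 and 21.4 ppm in mb1-cre KO, 0, 2.16 and 12.3 ppm in TAT-Cre WT, and 0, 0 and 2.21 ppm in TAT-Cre KO (log2 +2.06). All 3 mb1-cre KO libraries, 2 of 3 TAT-Cre WT and 1 of 3 TAT-Cre KO libraries thus had signal. Tbc1d14, a Rab regulator (+2.29), Mgll with Gm26588 (+1.53) and Gpx4, the lipid peroxide reductase (+1.69), were the others named by their p-values. All 4 members abutted H3K27ac in the cells that chose them.

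For H3K27ac, KO and WT with Cre differed at 0 of 496 members (limma, 53 at an unadjusted p under 0.05, background 0.0104%), and before Cre at 0 of 67 (8 at an unadjusted p under 0.05, background 0%). Within mb1-cre alone 2 members were higher and 10 lower in KO of 378 (background 0.0437% and 0.947%), and within TAT-Cre alone 1 was higher and 3 lower of 63 (background 0.0254% and 3.86%). Between systems 19 of 661 were lower in TAT-Cre (2.87%; background 2.82%) and none higher, a share near the background. They were led by a member 23704 bp from Pik3r1, the regulatory subunit of PI3 kinase (chr13:101654771-101657056). It had 36.0, 42.3 and 28.0 ppm in mb1-cre WT and 34.7, 42.0 and 34.4 ppm in mb1-cre KO at 0 h, 0, 0 and 14.8 ppm in mb1-cre KO at 24 h, and 0 ppm in all TAT-Cre libraries (log2 -3.91). Others lay in Mtss1, an actin regulator (-3.36, adjusted p = 0.101 on trimmed lists), 9567 bp from Mexis (-3.70) and in Gm26535 (-3.39).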

How the data were processed

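CUT&RUN fragments were sequenced from 77 libraries of CD23+ B cells. Per the submitters' processing notes, the authors used Trimmomatic 0.32, Bowtie2 2.3.4.1, Picard, deepTools 3.5.1 and the build mm10. Per the labels, spike-in DNA from yeast was used, and the antibody was 1.5 µg for H2AK119Ub and 3 µg for either other mark. SEACR's norm and relaxed settings stand in the list names; its version, control and scaling: not given in the sources used here. Each deposited list, 1 per library, holds peak positions and signal, a sum of coverage that the authors computed, on a scale that may differ from list to list. Peak calls thus depend on the unknown depth of each library.

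The autosomes were divided by the peaks of mb1-cre WT at 24 h into stretches of 6 classes of at least 1 kb. Peak signal was shared evenly over a peak's bases, summed per stretch and divided by the library's autosomal peak signal (ppm), which lowers every stretch where much was called. Stretches with signal in at least 3 libraries of a comparison were fitted on log2(ppm + 1) with limma 3.58.1 in R 4.3.3, with system, genotype and time strata as covariates and Benjamini-Hochberg adjustment over all stretches at 0.05. The comparisons were KO against WT with Cre (mb1-cre 0 h, TAT-Cre 24 h), before Cre (TAT-Cre 0 h), 24 h against 0 h, and TAT-Cre against mb1-cre; none used mb1-cre WT at 24 h. The fit was tested on simulated data with normal noise and no exact zeros, so that test does not cover stretches at 0 in many libraries. Tables were handled with python 3.11.15, numpy 2.4.6 and pandas 2.3.3.

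Groups follow the titles; mb1-cre KO H3K27me3 replicate 5 is titled naive but its treatment label says stimulated, and it was kept at 0 h. The members and gene lists were chosen with earlier results of these data known. Named are the 10 longest members, the 10 genes with the most member bases (body and 2 kb flanks), up to 3 genes per list with the most, and up to 4 called members per direction and fit by smallest p; others were chosen after their values were seen. Genes and 300-base promoters come from RefSeq (GRCm38.p6), which names the same coordinates as mm10. Promoters of chromosome 18 were not used here, and genes elsewhere also lacked one, with 79.5% of protein-coding genes covered. Alternatives were another pseudocount (10 ppm), percent of bases in place of ppm, lists trimmed to equal length, other member rules, a replicate block, each library left out and, added after seeing the data, each system alone. The values of 1 gene of the activation list are not reported here.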

Additional observations from a re-analysis of the deposited data

Results flagged for a closer look

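Among the groups of 4 or 5 libraries, all of H3K27me3 in the mb1-cre system, 1 value stood far from the others of its group. H3K27me3 peaks of mb1-cre KO replicate 5 at 0 h covered 7.27% of member bases, and the next highest library of that group 1.62%. The gap was 0.782 of the group's range, above the critical value of 0.71 for 5 samples; chance passes about 1 in 20 groups. This library's peaks covered 203.7 Mb of the autosomes, against 40.5 to 114.7 Mb for the other 4, and its treatment label says stimulated while its title says naive. With it moved to 24 h, no member was called for H3K27me3 over time.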

How the results depend on the processing

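The rule set the number of members: 4242 with H2AK119Ub required in 3 of 3 lists, 5667 as whole blocks only, 5495 on the stronger 50% of each list, and 5485 to 10214 with 1 list left out (5485 without H2AK119Ub replicate 2 and 5751 without replicate 3). Mean H2AK119Ub coverage at 24 h in mb1-cre KO, TAT-Cre WT and TAT-Cre KO was 9.83%, 6.37% and 8.49% on trimmed lists and 56.0%, 59.3% and 61.2% for the 4242; on the stronger 50% it was 23.8% in mb1-cre KO and 31.8% in TAT-Cre WT. With 1 library left out it spanned 36.1% to 40.3%, 41.5% to 46.2% and 39.6% to 53.7%.

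H2AK119Ub calls over time (1889) numbered 546 on trimmed lists, 355 in mb1-cre and 1095 in TAT-Cre alone, and 1501 to 2042 with 1 library left out. KO against WT gave 9 without the short lists and 69 in TAT-Cre alone, and before Cre 14 on trimmed lists. H3K27me3 over time gave 0 with a pseudocount of 10 ppm, on percent of bases, with replicate 5 at 24 h, with the replicate block and in TAT-Cre alone, 2 on trimmed lists and 33 in mb1-cre alone. Leaving out 1 library gave 0 to 4: 4 without mb1-cre KO 0 h replicate 1, 3 without TAT-Cre KO 0 h replicate 2, 1 without TAT-Cre KO 0 h replicate 3 or 24 h replicate 2, and 0 without any of the 17 others. H3K27me3 between systems gave 0 with a pseudocount of 10 ppm, 9 on trimmed lists, 2 on percent of bases, and 1 to 5 with 1 library left out (mb1-cre WT 0 h replicate 2: 4; mb1-cre KO 0 h replicate 1: 5; mb1-cre KO 0 h replicate 2 or TAT-Cre WT 0 h replicate 1: 2).

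H3K27ac over time gave 27 on trimmed lists, 46 with the replicate block, 14 in TAT-Cre alone, and 45 (without mb1-cre KO 0 h replicate 1) to 95 with 1 library left out. Between systems it gave 49 on percent of bases and 7 to 49 with 1 library left out: 49 without TAT-Cre KO 0 h replicate 2, 7 to 11 without mb1-cre WT replicate 1 or 3, KO replicate 3, TAT-Cre WT replicate 2 or KO replicate 1 or 3 at 0 h, or TAT-Cre KO 24 h replicate 2. KO against WT gave 12 in mb1-cre and 4 in TAT-Cre alone, and before Cre 2 on trimmed lists and 0 to 2 with 1 library left out (2 without TAT-Cre KO replicate 2). The cause of these changes was not tested. The remaining counts of 0 held with each library left out. Directions of single named members held under the alternatives run, but the balance of calls did not always: H3K27me3 over time was called lower on 1 member in the pooled fit, and higher on 30 and lower on 3 in mb1-cre alone (medians +0.34 in mb1-cre and -1.25 in TAT-Cre), and the median over all stretches of H2AK119Ub over time went from +0.79 to -0.40 on trimmed lists. Among the named members' calls, 17 were lost and 386 kept with 1 library left out, and 14 lost and 101 kept under the other alternatives.

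Same-numbered libraries did not deviate together (mean correlations of 0.02, -0.02 and 0.01 for H2AK119Ub, H3K27me3 and H3K27ac), so the numbers were not taken as pairs. With a replicate block, H2AK119Ub over time gave 1849 calls and KO against WT 0. The block was not run between systems. Read depth is not given, so counting error could not be stated.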
